A study of Mus musculus with 8 samples.

Results

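The podocyte foot-process cytoskeleton genes described here are 10 genes, Synpo, Cd2ap, Actn4, Myo1e, Nes, Vim, Ezr, Fat1, Robo2 and Clic5, chosen by name for their place in the actin, intermediate filament and adaptor machinery of podocytes. The choice was made with earlier results of these data known. All 10 were found among the 17326 genes whose line in the deposited table held a count for each of 8 libraries, and all 10 passed the filter on low counts that left 16477 genes for testing. The study sorted glomerular endothelium and podocytes by fluorescence-activated cell sorting from the kidneys of EMCN+/+ and EMCN-/- mice and sequenced their polyadenylated RNA. The 4 groups of 2 libraries are wild-type (EMCN+/+) endothelium, knockout (EMCN-/-) endothelium, wild-type podocytes and knockout podocytes, and the libraries of each group carry the numbers 2 and 3. Strain, age, the kind of allele and the markers used for sorting are not given in the sources used here, nor is it said that libraries of a group came from separate animals, so the p-values measure only the spread between these libraries, which may be technical. Emcn encodes endomucin, a sialomucin of the endothelial surface, and the question the design addresses for these genes is how their RNA differs between the sorted cell types and whether it differs when endomucin is missing.

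Podocytes wrap the outer face of the glomerular capillaries with interlocking foot processes, which are joined by the slit diaphragm and held in shape by bundles of actin filaments. The cell body and major processes are carried by intermediate filaments and microtubules, while the foot processes depend on actin, its crosslinkers and the adaptors that tie it to the slit diaphragm, the basement membrane and the apical membrane. Inherited defects in several of these genes, among them ACTN4, CD2AP and MYO1E, cause proteinuric kidney disease.

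Library depth on the lines used ran from 10478956 to 17386042 counts, of which mitochondrially encoded genes took 10.1% to 26.2%. The targeted gene, Emcn, stood at 1972 and 1828 CPM (read counts scaled to a common library size, here with TMM factors) in wild-type endothelium and at 173 and 179 CPM in knockout endothelium, 9.27% of the wild-type mean. It was the 1 gene called between genotypes in each cell type by edgeR's quasi-likelihood test with Benjamini-Hochberg adjustment over all 16477 genes (adjusted p = 0.02052 in endothelium and 0.03206 in podocytes). The 11 endothelial markers summed to 9683 to 12596 CPM in endothelium and 576 to 888 CPM in podocytes. The 6 podocyte markers that could be read, of 11 listed, summed to 5091 to 11870 CPM in podocytes and 955 to 1780 CPM in endothelium, and none of them was at 0 in all libraries of a group. Markers of the distal nephron were high in both sorts, at 2530 to 14821 CPM in endothelium and 4040 to 11458 CPM in podocytes (5 of 9 genes readable).

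In wild type, 9 of the 10 genes were called higher in podocytes than in endothelium, against 4.73% of all genes tested, and in knockout 8 of the 10 were, against 6.09%. The same 8 were called in both, namely Synpo, Cd2ap, Myo1e, Nes, Ezr, Fat1, Robo2 and Clic5. Actn4 passed in wild type and not in knockout, and Vim passed in neither. The median log2 fold change of the 10 was 1.73 in wild type and 1.71 in knockout, beside 0.01 for all genes tested in each. Both wild-type podocyte libraries lay above both wild-type endothelium libraries for 10 of 10 genes, as they did for 25.7% of all genes, and in knockout this held for 9 of 10 (all but Vim), as it did for 27.8%. Markers of other glomerular cells were also higher in podocytes: the 5 parietal epithelium markers summed to 587 and 658 CPM in wild-type podocytes and 174 and 431 CPM in wild-type endothelium, with Cldn1 and Pax8 called, and the 8 readable mural and mesangial markers to 885 and 871 against 629 and 405 CPM, with Tagln called. In knockout the parietal sums were 1116 and 587 against 148 and 157 CPM and the mural and mesangial sums 1218 and 458 against 503 and 294 CPM. Proximal tubule markers (5 of 9 readable) summed to 399 and 769 against 207 and 346 CPM in wild type. In knockout they summed to 2143 and 593 against 626 and 383 CPM, with Miox called. Csf1r was the 1 leukocyte marker called, in both genotypes, while 3 of 5 leukocyte values in wild type and 4 in knockout were negative. Of 17 dissociation-response genes, 1 was called higher in wild type and 6 in knockout, against 4.73% and 6.09% of all genes. None of these genes was at 0 in both libraries of a group, and their part in the members' values was not tested. Summed, the 10 genes took 0.414% and 0.260% of the counts in wild-type endothelium, 0.387% and 0.307% in knockout endothelium, 1.38% and 0.955% in wild-type podocytes, and 0.876% and 0.841% in knockout podocytes.

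**Figure D1:**
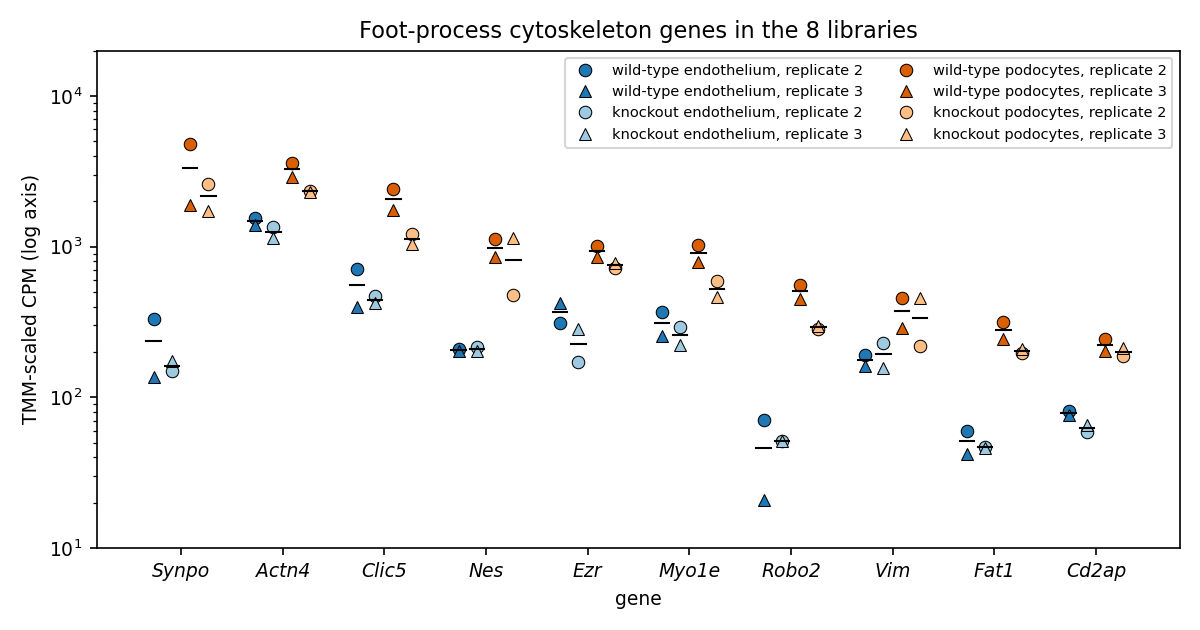
TMM-scaled CPM on a log axis for the 10 genes, ordered by their wild-type podocyte mean, in the 4 groups; each point is 1 library (circle, replicate 2; triangle, replicate 3) and each short line a group mean. The podocyte points stand above the endothelium points for every gene except Vim, where knockout podocyte replicate 2 (220 CPM) lies within the knockout endothelium range.

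Actn4 encodes alpha-actinin-4, which crosslinks actin filaments into bundles, and lies on the minus strand of chr7:28893248-28962340 (GRCm38), where it overlaps Capn12 on the other strand; whether counting used strand is not given in the sources used here, so reads of overlapping genes cannot be told apart. Its level was 1561 and 1395 CPM in wild-type endothelium and 1357 and 1142 CPM in knockout endothelium, and in podocytes it was 3599 and 2922 CPM in wild type and 2358 and 2320.0 CPM in knockout. All podocyte libraries were higher than all endothelium libraries, but endothelium held much Actn4 too, 45.3% of the podocyte mean in wild type and 53.4% in knockout. The podocyte excess was 1.14 (SE 0.27) on the log2 scale in wild type and 0.90 (SE 0.27) in knockout, with edgeR adjusted p of 0.02396 and 0.0622. The wild-type call is not firm: it was lost with DESeq2 size factors (adjusted p = 0.0554), with scaling by total count (0.0615), in a fit of only the 4 libraries compared (0.0679) and without either wild-type endothelium library or wild-type podocyte replicate 2. In knockout Actn4 passed with DESeq2 (adjusted p = 0.01075), voom (0.01697) and the replicate block (0.02058), and not in the other alternatives run.

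Synpo encodes synaptopodin, an actin-associated protein of podocyte foot processes and of dendritic spines. It had 333 and 137 CPM in wild-type endothelium and 150 and 174 CPM in knockout endothelium, against 4773 and 1904 CPM in wild-type podocytes and 2589 and 1727 CPM in knockout podocytes. Replicates 2 and 3 stood far apart in wild type, in podocytes as in endothelium, and the highest endothelium library was still well below the lowest podocyte library. Synpo had the largest podocyte excess of the 10, at 3.83 (SE 0.54) on the log2 scale in wild type and 3.74 (SE 0.54) in knockout (edgeR adjusted p = 0.001167 and 0.001447). The wild-type value was 3.003 without wild-type podocyte replicate 2 and 4.61 without wild-type endothelium replicate 2. Its relatives Synpo2 and Synpo2l made up little of the family: Synpo held 97.7% to 99.8% of the family's CPM per kb of exon in the group means.

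Myo1e encodes a non-muscle class I myosin, a motor that links actin to membranes (plus strand of chr9:70207350-70399766). Endothelium held 368 and 254 CPM in wild type and 293 and 224 CPM in knockout, and podocytes held 1026 and 795 CPM in wild type and 588 and 462 CPM in knockout. The groups did not overlap between cell types, and knockout podocytes lay between the endothelium libraries and the wild-type podocytes. The log2 difference was 1.55 (SE 0.29) in wild type and 1.02 (SE 0.28) in knockout (edgeR adjusted p = 0.005785 and 0.04544), and the knockout call was lost under 5 of the other processing settings and in 3 of the 4 fits without 1 knockout library. The wild-type call was lost in 2 of 13 alternatives, and its value ran from 1.31 to 1.84 over the fits without 1 library. Among class I myosins, Myo1d was higher in podocytes as well (log2 2.28, SE 0.30, adjusted p = 0.0007287 in wild type), while Myo1c, the most abundant one in endothelium, was not called (−0.43, SE 0.27, adjusted p = 0.4506). Myo1e made up 25.6% ± 0.460 (SD, n = 2) of class I myosin CPM per kb in wild-type endothelium and 41.9% ± 1.19 (SD, n = 2) in wild-type podocytes.

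The promoter sequences of the members were read for motifs of factors that act in podocytes or on actin genes, and the pair below is shown because they held matches among the members that build actin bundles and membrane links. RefSeq windows of 250 bases before the start (GRCm38.p6) matched 9 of the 10 genes, in 11 windows; both strands were searched, and capitals mark the matches. GCGTGGGNG, the WT1 and EGR motif, was in the window of Actn4 and in 1.65% of 32851 such windows. GGAATG, the TEAD motif, was in those of Actn4 and Fat1 and in 12.6% of all, although the Fat1 window (chr8:44949958-44950207) lies inside the GENCODE gene model, which starts at 44935447. The CArG box, the site of serum response factor, was in that of Myo1e and in 1.47% of all. TAATTA, the LMX1B motif (4.84% of all windows), and CCGGAAGT, the ETS motif (2.88%), were in none.
Actn4 (chr7:28962333-28962582, minus strand): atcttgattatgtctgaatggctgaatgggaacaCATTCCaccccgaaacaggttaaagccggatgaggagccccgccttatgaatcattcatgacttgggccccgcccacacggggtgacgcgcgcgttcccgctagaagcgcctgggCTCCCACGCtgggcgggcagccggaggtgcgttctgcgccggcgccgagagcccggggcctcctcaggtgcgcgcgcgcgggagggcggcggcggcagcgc
Myo1e (chr9:70207100-70207349, plus strand): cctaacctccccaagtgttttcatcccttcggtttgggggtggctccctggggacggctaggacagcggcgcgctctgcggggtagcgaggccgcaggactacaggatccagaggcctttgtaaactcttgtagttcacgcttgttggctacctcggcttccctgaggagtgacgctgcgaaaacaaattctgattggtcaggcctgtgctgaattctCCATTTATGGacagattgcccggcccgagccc
In Actn4 the TEAD match began 216 bases and the WT1 and EGR match 101 bases before the start, both on the opposite strand, and in Myo1e the CArG box began 32 bases before it. A match of letters is a description and not a binding site.

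Cd2ap encodes CD2-associated protein, an adaptor that ties the slit diaphragm to actin (minus strand of chr17:42792951-42876665). Its level was 59.1 to 80.8 CPM over the 4 endothelium libraries and 189 to 244 CPM over the 4 podocyte libraries, with no overlap. The log2 difference was 1.5 (SE 0.22) in wild type and 1.68 (SE 0.22) in knockout (edgeR adjusted p = 0.001237 and 0.0007312). Its relative Sh3kbp1, also an SH3 adaptor, was not called in wild type (−0.42, SE 0.32, adjusted p = 0.5607). The replicates of Cd2ap were close, and its standard error was the smallest of the 10 in wild type.

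Nes and Vim encode the intermediate filament proteins nestin and vimentin, which polymerise together. Nes (plus strand of chr3:87971078-87980451) was even over the endothelium libraries, at 210 and 202 CPM in wild type and 214 and 204 CPM in knockout. In podocytes it stood at 1118 and 849 CPM in wild type and at 478 and 1141 CPM in knockout, so that knockout replicate 2 was low and knockout replicate 3 was the highest of all. The podocyte excess was 2.26 (SE 0.38) and 1.95 (SE 0.37) on the log2 scale in wild type and knockout (edgeR adjusted p = 0.003079 and 0.007045), and the knockout value was 1.198 without knockout podocyte replicate 3 and 2.45 without replicate 2.

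Vim (plus strand of chr2:13573927-13582826) was 190 and 162 CPM in wild-type endothelium and 229 and 157 CPM in knockout endothelium. Podocytes held 456 and 289 CPM in wild type and 220 and 456 CPM in knockout, with the same low library as for Nes. Its log2 difference of 1.09 (SE 0.37) in wild type and 0.81 (SE 0.36) in knockout did not pass (edgeR adjusted p = 0.11 and 0.2162), and the knockout value was 0.20 without knockout podocyte replicate 3 and 1.25 without replicate 2. In wild type Vim did pass with DESeq2's Wald test (adjusted p = 0.0465) and in the fit of only the 4 libraries compared (0.0326). Desmin (Des), the muscle-type filament protein that injured podocytes also make, was 0.99 (SE 0.30) higher on the log2 scale in wild-type podocytes, with adjusted p = 0.07535.

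Knockout podocyte replicates 2 and 3 thus differed in Nes and Vim: replicate 3 minus replicate 2 was 1.26 for Nes and 1.05 for Vim in log2 CPM, beside a median absolute difference of 0.46 over all genes tested. Des went the other way, at 96.7 CPM in replicate 2 and 57.1 CPM in replicate 3. The other 8 members differed by at most 0.58 between these libraries (Synpo, with replicate 2 the higher). Replicate 2 also had the lower podocyte marker sum, 5091 against 7823 CPM, and the higher sums of proximal tubule markers (2143 against 593 CPM, 5 of 9 genes readable), of parietal epithelium markers (1116 against 587 CPM, all 5 readable) and of mural and mesangial markers (1218 against 458 CPM, 8 of 11 readable), with none of these genes at 0 in both libraries. Distal nephron markers went the other way, at 4040 CPM in replicate 2 and 7641 CPM in replicate 3, as did the mitochondrial share of counts, at 12.9% and 22.2%. The part of these cells and of the mitochondrial share in the Nes and Vim values was not tested. In a bulk library fewer cells of a type and less RNA per cell cannot be told apart.

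**Figure D2:**
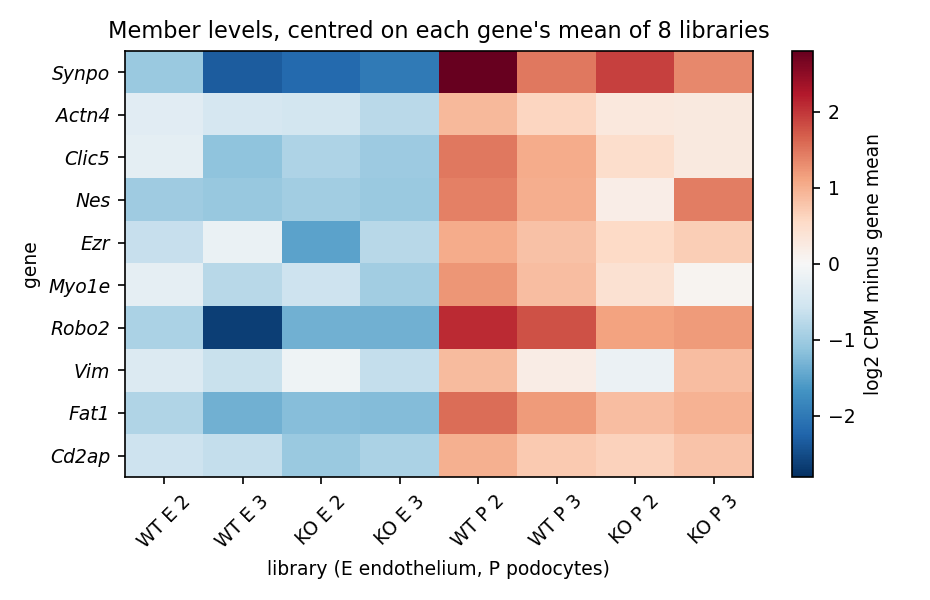
Log2 CPM of each gene minus its own mean over the 8 libraries (colour scale, red above and blue below the mean), genes in rows and libraries in columns. Synpo and Robo2 show the widest span between cell types, Actn4 and Vim the narrowest, and Nes and Vim differ between the knockout podocyte libraries.

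The membrane-linker genes Ezr and Clic5 were higher in podocytes, while relatives of each were lower there. Ezr encodes ezrin, which ties actin to podocalyxin at the apical membrane, and lies on the minus strand of chr17:6738041-6782784, where it overlaps Sytl3 on the other strand. It had 311 and 425 CPM in wild-type endothelium and 171 and 282 CPM in knockout endothelium, against 1005 and 856 CPM in wild-type podocytes and 720.5 and 784 CPM in knockout podocytes. The cell types did not overlap. The log2 difference was 1.34 (SE 0.30) in wild type and 1.73 (SE 0.30) in knockout (edgeR adjusted p = 0.01612 and 0.00413), and the wild-type call was lost without wild-type endothelium replicate 2 or wild-type podocyte replicate 2.

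Moesin (Msn) and radixin (Rdx) are the other two ERM proteins, with the same linker function. Msn was 963 to 1374 CPM over the endothelium libraries and 347 to 775 CPM over the podocyte libraries, and its podocyte level was lower by the edgeR test in wild type (−1.38, SE 0.37, adjusted p = 0.04517) and not in knockout (−0.96, SE 0.37, adjusted p = 0.147). Rdx was lower in podocytes in both genotypes (−1.23 and −1.21, SE 0.22 each, adjusted p = 0.00495 and 0.005725). Of the summed CPM per kb of the 3 genes, Ezr made up 25.4% ± 6.36 (SD, n = 2) in wild-type endothelium and 68.2% ± 1.28 (SD, n = 2) in wild-type podocytes, and 18.8% ± 6.77 and 62.0% ± 9.71 in knockout. Endothelium thus held mostly Msn and Rdx, and podocytes mostly Ezr.

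Clic5 encodes chloride intracellular channel protein 5, which associates with ezrin and podocalyxin (plus strand of chr17:44188584-44280172). Endothelium had 712 and 395 CPM in wild type and 470 and 421 CPM in knockout, and podocytes had 2402 and 1752 CPM in wild type and 1214 and 1034 CPM in knockout. The cell types did not overlap, and both knockout podocyte libraries were below both wild-type ones. The podocyte excess was 1.91 (SE 0.33) on the log2 scale in wild type and 1.33 (SE 0.32) in knockout (edgeR adjusted p = 0.003862 and 0.02509), and the knockout call was lost with scaling by total count and in 3 of the 4 fits without 1 knockout library.

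The CLIC family split as well. Clic4 was lower in wild-type podocytes (−1.66, SE 0.37, adjusted p = 0.01798) and not called in knockout (−1.16, SE 0.37, adjusted p = 0.07788). Clic1 was lower in both (−1.42 and −1.12, SE 0.22 each, adjusted p = 0.002266 and 0.009177), whereas Clic3 was higher in both (2.99, SE 0.42 and 2.69, SE 0.41, adjusted p = 0.001042 and 0.002026). Per kb, Clic3 was the largest member in podocytes, at 76.6% ± 1.13 (SD, n = 2) of the family in wild type, and Clic5 made up 13.0% ± 0.0720 there and 8.12% ± 2.88 in wild-type endothelium.

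The surface receptors Robo2 and Fat1 were the least abundant in endothelium per kb. Robo2 encodes a receptor for Slit ligands that is found at the slit diaphragm (minus strand of chr16:73891839-74411825, with 7 small annotated entries inside it). Wild-type endothelium had 70.8 and 20.7 CPM and knockout endothelium 51.5 and 51.3 CPM, and podocytes had 556 and 452 CPM in wild type and 286 and 298 CPM in knockout. The wild-type endothelium replicates stood apart by 1.77 in log2 CPM, replicate 3 being the lower, whereas the podocyte replicates were close. The log2 difference was 3.46 (SE 0.47) in wild type and 2.51 (SE 0.45) in knockout (edgeR adjusted p = 0.0009073 and 0.005297), and the wild-type value was 4.61 without wild-type endothelium replicate 2 and 2.83 without replicate 3.

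Robo4, the ROBO receptor of endothelial cells, went the other way, at 122 to 213 CPM in endothelium and 2.11 to 5.83 CPM in podocytes (log2 −4.69, SE 0.40, adjusted p = 7.59e-05 in wild type). Robo2 made up 8.38% ± 5.22 (SD, n = 2) of ROBO CPM per kb in wild-type endothelium and 90.2% ± 3.33 (SD, n = 2) in wild-type podocytes, and Robo4 84.9% ± 5.17 and 3.0% ± 0.155. Robo1 and Robo3 were not called in either genotype. The ligand genes Slit2 and Slit3 were not called either (Slit2 in wild type 0.05, SE 0.36, adjusted p = 0.9731).

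Fat1 encodes a large atypical cadherin found at the slit diaphragm (plus strand of chr8:44935447-45052257, where it overlaps the antisense entry Gm2366). Its level was 42.1 to 59.8 CPM over the endothelium libraries, and 315 and 245 CPM in wild-type and 196 and 210 CPM in knockout podocytes. Its lowest podocyte library was far above its highest endothelium library. The log2 difference of 2.46 (SE 0.25) in wild type and 2.12 (SE 0.25) in knockout had the smallest adjusted p of the 10 genes in each genotype (edgeR, 0.0001731 and 0.0004107). Fat4 was lower in podocytes in both (−1.53, SE 0.32 and −1.13, SE 0.31, adjusted p = 0.01111 and 0.04446). Fat1 made up 53.7% ± 5.03 (SD, n = 2) of FAT CPM per kb in wild-type endothelium and 91.3% ± 5.05 in wild-type podocytes.

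**Figure D3:**
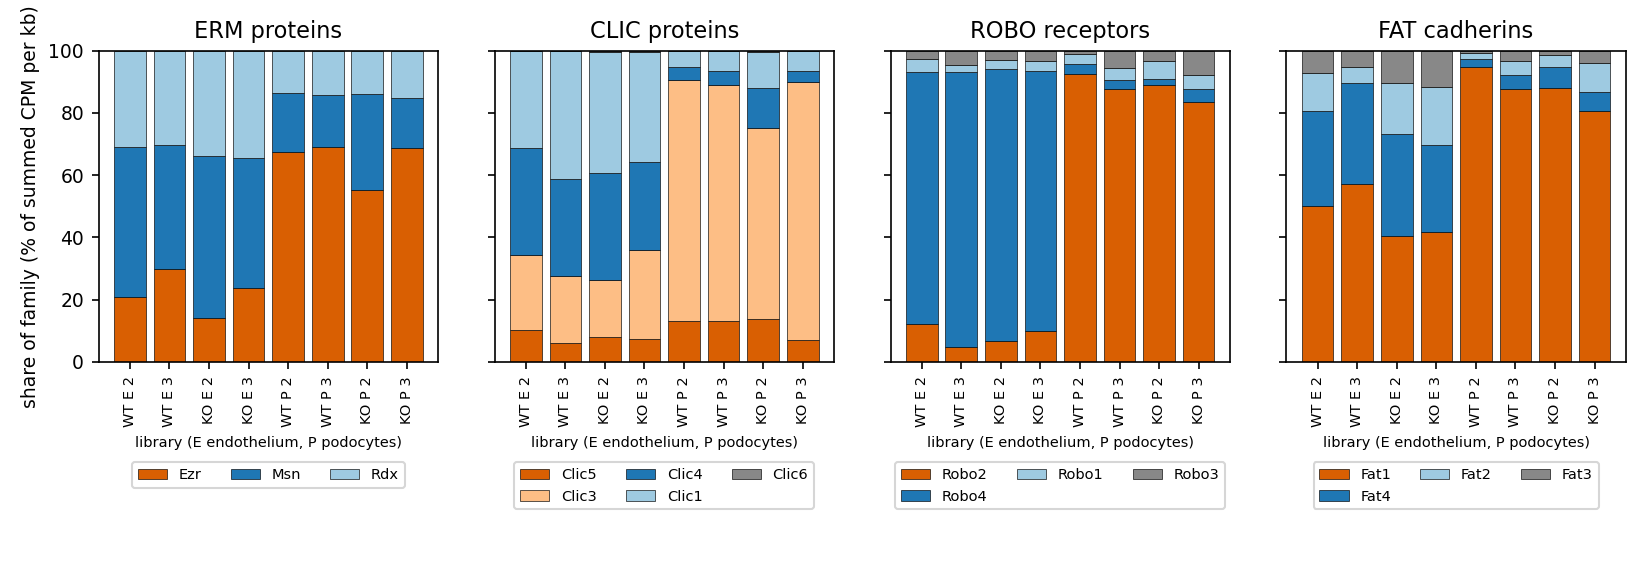
Share of each family's summed CPM per kb of exon (bars, % of family) taken by each gene in the 8 libraries, for the ERM, CLIC, ROBO and FAT families. Ezr, Robo2 and Fat1 take the larger share in podocytes (in wild type 68.2%, 90.2% and 91.3%), and Clic5 is a minor part of its family in every library.

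**Figure D4:**
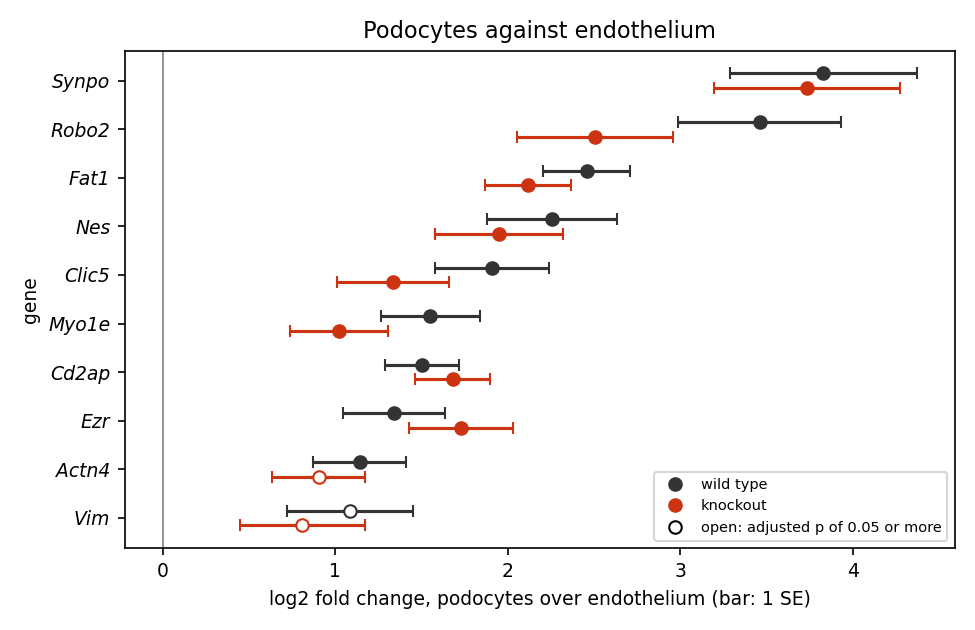
Log2 fold change of podocytes over endothelium for the 10 genes in wild type and knockout, with bars of 1 SE; filled points have an edgeR adjusted p under 0.05. Vim is open in both genotypes and Actn4 in knockout, and Synpo, Robo2 and Fat1 lie farthest to the right in wild type.

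Between genes, levels can be set side by side only per length of exon. In wild-type podocytes the order per kb was Actn4 at 532 ± 78.2 CPM per kb (SD, n = 2), Synpo at 350.2 ± 213, Ezr at 283 ± 32.0, Clic5 at 237 ± 52.3, Myo1e at 160 ± 28.7 and Nes at 153 ± 29.7. Vim at 78.6 ± 24.9, Robo2 at 29.7 ± 4.32, Fat1 at 17.9 ± 3.18 and Cd2ap at 14.0 ± 1.91 followed. The libraries of Actn4 and Synpo, Synpo and Ezr, Ezr and Clic5, and Myo1e and Nes overlapped, so those neighbours are not ordered beyond their spread. In wild-type endothelium Actn4 again came first, at 241 ± 19.1 CPM per kb, followed by Ezr at 112 ± 24.5 and Clic5 at 63.0 ± 25.5, while Synpo was only the seventh, at 24.6 ± 14.6. Counting length by the longest transcript in place of all exons moved no gene by more than 1 place in either of these groups.

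Set against the podocyte mean, wild-type endothelium held 7.03% of Synpo, 9.08% of Robo2, 18.2% of Fat1, 20.9% of Nes, 26.6% of Clic5 and 34.1% of Myo1e. Cd2ap at 35.3%, Ezr at 39.5%, Actn4 at 45.3% and Vim at 47.1% were the nearest to equal. The podocyte transcription factor genes Wt1, Tcf21 and Lmx1b and the cell-cycle inhibitor gene Cdkn1c, which mark podocytes among glomerular cells, stood at 8.26% to 12.4% in the same libraries. The marker Podxl, which also entered the podocyte marker sums, stood at 16.7%. In knockout endothelium Synpo stood at 7.50% and Robo2 at 17.6%, beside 6.10% to 12.9% for the first 4 markers and 26.0% for Podxl. The wild-type Robo2 share rests on endothelium libraries at 70.8 and 20.7 CPM, and how much podocyte RNA contributed to the endothelium values was not tested.

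Of 10079 genes averaging 5 CPM or more, those whose centred log2 CPM profiles over the 8 libraries lay nearest to a member were named, as a description of likeness, with the root mean square difference as its measure. Clic5 was nearest to Tmod3 (0.07), a tropomodulin that caps actin filaments, and Fat1 to Arhgef18 (0.09), a guanine nucleotide exchange factor. Robo2 was nearest to Pak1 (0.15), a kinase downstream of Rac and Cdc42, and Nes to Srgap1 (0.18), a GTPase-activating protein of the Slit and Robo pathway. Synpo had the most distant nearest gene, Scx at 0.30. Of the members themselves, Clic5 and Myo1e lay closest, at 0.21, and Synpo and Vim farthest apart, at 1.55. All these genes share the same 8 libraries and depths.

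Loss of endomucin gave no call among the 10 genes. In podocytes 0 of 10 passed by edgeR, against 0.00607% of all genes, and 0 of 10 by DESeq2 and by limma voom, and 2 of 10 had an unadjusted edgeR p under 0.05, against 4.43%. In endothelium 0 of 10 passed by edgeR, against 0.00607%, and 0 of 10 by the other two tools, and 1 of 10 had an unadjusted p under 0.05, against 5.49%. The difference between the 2 genotype effects gave 0 of 10 by edgeR, against 0.00%, and 0 of 10 by DESeq2 and by voom, and 0 with an unadjusted edgeR p under 0.05, against 2.60%. In libraries simulated with the spread of these for the podocyte comparison alone, the test recovered 7.50% of genes changed 2-fold and 77.5% of genes changed 4-fold, and 12 of its 120 calls were false. In podocytes a difference of 2-fold in 1 gene was thus mostly not detectable at this number of libraries.

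In podocytes all 10 genes had negative genotype values, none of them called; their median log2 fold change was −0.47, beside 0.02 over all genes tested. Both knockout podocyte libraries lay below both wild-type ones for 6 of the 10, Actn4, Myo1e, Ezr, Fat1, Robo2 and Clic5, as they did for 16.0% of all genes. Clic5, with 1214 and 1034 against 2402 and 1752 CPM, was at 54.1% of its wild-type mean (log2 −0.89, SE 0.32, unadjusted p = 0.01955, edgeR adjusted p = 0.9783). Myo1e was at 57.7% (−0.79, SE 0.28, unadjusted p = 0.01787, adjusted p = 0.9783) and Robo2 at 57.9% (−0.79, SE 0.43, adjusted p = 0.9783). Synpo at 64.6%, Actn4 at 71.7%, Fat1 at 72.4%, Ezr at 80.8%, Nes at 82.3%, Cd2ap at 90.03% and Vim at 90.7% were nearer to their wild-type means.

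The signs were not all stable. Without wild-type podocyte replicate 2, which had the highest podocyte value of each gene but Nes, the podocyte genotype values of Synpo (0.21), Cd2ap (0.013) and Vim (0.23) turned positive and the median of the 10 was −0.21. Without knockout podocyte replicate 2, Nes (0.21) and Vim (0.29) turned positive. Clic5, Myo1e, Robo2, Actn4, Fat1 and Ezr stayed negative in every alternative run.

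Marker sums of several cell types were set beside these values. The 6 readable podocyte markers summed to 11870 and 8690 CPM in wild-type and 5091 and 7823 CPM in knockout podocytes, with no overlap, and Wt1 stood at 68.2%, Tcf21 at 65.2%, Cdkn1c at 59.6%, Podxl at 63.4% and Lmx1b at 80.2% of their wild-type means. Clic5, Myo1e, Robo2 and Synpo were thus at 54.1% to 64.6%, and these 5 markers at 59.6% to 80.2%. The dissociation-response genes summed to 47667 and 39323 CPM in wild-type and 37715 and 33163 CPM in knockout podocytes, also with no overlap. All 5 readable proximal tubule markers had positive genotype values, none called, and summed to 399 and 769 CPM in wild-type and 2143 and 593 CPM in knockout podocytes, which overlap. Positive values, none called, were also found for 6 of 8 mural and mesangial markers (median 0.74) and 4 of 5 parietal epithelium markers (median 0.655). Endothelial markers summed to 888 and 712 CPM in wild-type and 687 and 576 CPM in knockout podocytes, with no overlap. The part of podocyte content, of other cells and of the dissociation response in the genotype values was not tested.

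In endothelium 7 of the 10 genes had negative genotype values, with a median of −0.25 beside 0.01 over all genes. That median was 0.091 without wild-type endothelium replicate 2, beside 0.11 over all genes, −0.42 without wild-type endothelium replicate 3 and −0.13 without knockout endothelium replicate 3. With scaling by total count it was 0.064, beside 0.33 over all genes. All 6 readable podocyte markers also had negative genotype values in endothelium, none called, with a median of −0.56. The values were uneven, from −1.24 for Lmx1b to −0.025 for Tcf21 and −0.016 for Podxl. They summed to 1780 and 955 CPM in wild-type and 1193 and 1107 CPM in knockout endothelium, highest in wild-type replicate 2. The parietal epithelium sums were 174 and 431 CPM in wild type and 148 and 157 CPM in knockout, with no overlap. Proximal tubule markers were higher in knockout endothelium with no overlap, at 626 and 383 against 207 and 346 CPM, with 4 of 5 genotype values positive and none called. The part of these cells in the endothelial genotype values was not tested. In the full data knockout endothelium lay wholly below wild type for Ezr, Cd2ap and Actn4, as it did for 19.7% of all genes. Ezr, with 171 and 282 against 311 and 425 CPM, had the only unadjusted p under 0.05 (log2 −0.70, SE 0.29, unadjusted p = 0.03793, edgeR adjusted p = 0.7162). Its value was −1.11 without knockout endothelium replicate 3 and −0.39 without knockout endothelium replicate 2. The distal nephron marker sum followed the same order over these 4 libraries as Ezr, at 2530 and 6542 CPM in knockout and 6751 and 14821 CPM in wild type, and its part in the Ezr values was not tested. The dissociation-response genes (17 of 18 readable) were lower in knockout endothelium too, at 27792 and 36070 against 44396 and 51477 CPM. Nes was the most even, at 101.7% of its wild-type mean. With scaling by total count the endothelial genotype values of Actn4 (0.084), Myo1e (0.043) and Fat1 (0.17) turned positive, under a scaling that moved the median of all genes to 0.33.

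**Figure D5:**
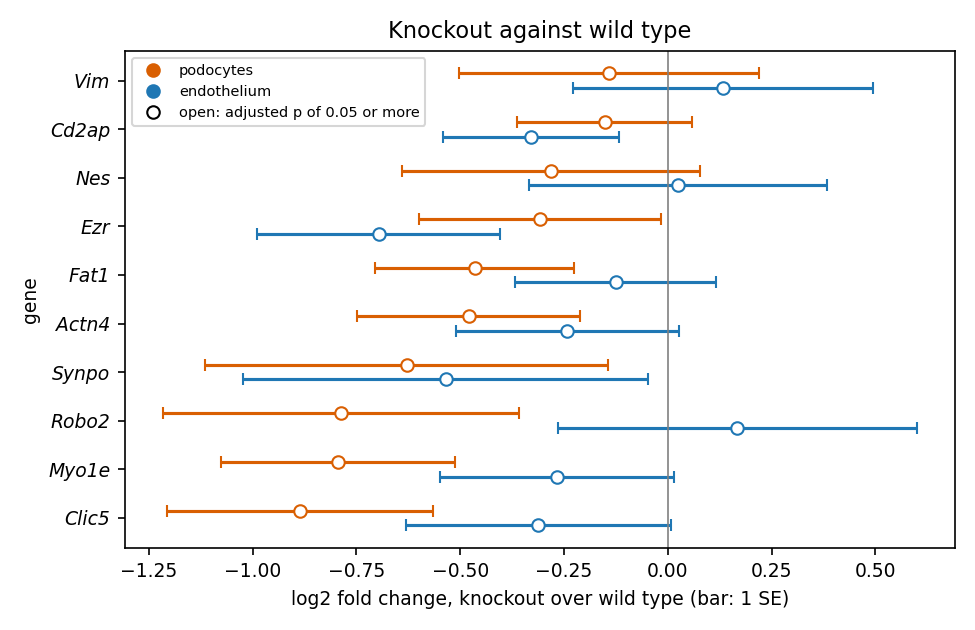
Log2 fold change of knockout over wild type for the 10 genes in podocytes and in endothelium, with bars of 1 SE; all points are open because no adjusted p was under 0.05. The podocyte points all lie below 0, from −0.14 for Vim to −0.89 for Clic5, and the endothelium points lie on both sides.

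The interaction values ran from −0.95 (SE 0.61) for Robo2 to 0.39 for Ezr on the log2 scale, with an edgeR adjusted p of 1 for all 10. Leaving out 1 library moved the Robo2 value between −2.09 (without wild-type endothelium replicate 2) and −0.32 (without wild-type endothelium replicate 3). It moved the Ezr value between 0.080 (without knockout endothelium replicate 2) and 0.80 (without knockout endothelium replicate 3). An effect of genotype that differs between the cell types was thus not detected for any of the 10, and the power to detect one was not simulated.

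Other genes of the foot-process machinery were counted in the same way. Of 12 tested slit diaphragm genes, 7 were higher and 1 lower in wild-type podocytes (against 4.73% and 4.26% of all genes), and 5 and 1 in knockout (against 6.09% and 4.28%), with medians of 1.28 and 0.96 beside 0.01 over all genes in each. Crb2, a polarity protein of the slit diaphragm, was 8.97 to 45.4 CPM in endothelium and 181 to 490 CPM in podocytes (log2 3.90, SE 0.64, edgeR adjusted p = 0.002934 in wild type), and Nck2, an adaptor that binds nephrin, was higher by 2.29 (SE 0.42, adjusted p = 0.005679). Nck1, its near relative, was lower (−1.01, SE 0.23, adjusted p = 0.01798).

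Of 16 genes of actin assembly and crosslinking other than the members, 2 were higher and 2 lower in each genotype. Over all genes, 4.73% were higher and 4.26% lower in wild type, and 6.09% and 4.28% in knockout. The medians of the 16 were −0.06 in wild type and 0.18 in knockout, beside 0.01 over all genes in each. Daam2, a formin, and Wasl, which activates the Arp2/3 complex, were the higher ones (log2 2.56, SE 0.38 and 1.19, SE 0.23, edgeR adjusted p = 0.001513 and 0.006727 in wild type). Fscn1, the bundling protein fascin, and Marcks were the lower ones (−2.52, SE 0.47 and −1.07, SE 0.29, adjusted p = 0.006146 and 0.04366). The abundant Dstn, Pfn1 and Capzb, which sever filaments, bind actin monomers and cap filament ends, were not called. Unreadable lines limit this: 16 of the 32 genes listed, and 12 of the 20 slit diaphragm genes, were on complete lines.

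Of 18 regulators of small GTPases, 5 were higher and 2 lower in wild-type podocytes (against 4.73% and 4.26% of all genes) and 4 and 2 in knockout (against 6.09% and 4.28%). Arhgap24, a Rac-inactivating protein of podocytes, stood at 244 to 395 CPM in endothelium and 1232 to 1959 CPM in podocytes (log2 2.14, SE 0.26, edgeR adjusted p = 0.0004609 in wild type), and Kank1 was higher by 2.40 (SE 0.26, adjusted p = 0.0002388). Kank4 and Dlc1 were lower (−2.05, SE 0.31 and −1.51, SE 0.22, adjusted p = 0.001559 and 0.001237). The GTPase genes Cdc42 and Rhoa themselves were not called (0.01, SE 0.24 and −0.27, SE 0.23).

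Of 7 genes that link podocalyxin to actin, 2 were higher and 4 lower in wild type and 3 and 2 in knockout. For this list and those after it, the shares of all genes were 4.73% higher and 4.26% lower in wild type, and 6.09% and 4.28% in knockout. Podxl, which encodes podocalyxin, a sialomucin of the podocyte surface, was higher by 2.58 (SE 0.35, edgeR adjusted p = 0.0008426), and Nherf2, its scaffold to ezrin, was lower (−1.09, SE 0.29, adjusted p = 0.0417). Of 13 genes that join focal adhesions to actin, 3 were higher and 0 lower in each genotype, Dag1, Itga3 and Cd151 (Dag1 2.91, SE 0.43, adjusted p = 0.001474 in wild type). Of 5 other readable myosins 2 were higher, Myo1d and Myo6, in each genotype. Of 6 other filament and linker genes 0 were called in wild type and Krt8 in knockout (1.49, SE 0.39, adjusted p = 0.03456). Of 6 Slit and Robo partners Robo4 was lower in each. Between genotypes 0 genes of these lists passed in either cell type by the edgeR test, against 0.00607% of all genes in each.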

How the data were processed

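The deposited data are 1 table of raw counts by gene, with a column named after the alignment file of each of the 8 libraries, per the file headers. The submitters' processing notes name the mm10 build and DESeq2 without saying what each was used for, and the aligner, the counting tool, the annotation and the use of strand are not given in the sources used here. Of 22533 lines, 5207 (23.11%) held fewer than 8 counts because of commas in the gene description and were not used; these short lines left empty cells in 3 of the deposited columns, which were recorded as another kind of value for that reason alone. A further 617 complete lines had no symbol.

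Counts were analysed with edgeR 4.0.16 (R 4.3.3). filterByExpr kept 16477 genes, libraries were scaled by TMM (trimmed mean of M-values), the model gave each group its own mean across all 8 libraries, and each contrast had a quasi-likelihood F test, with Benjamini-Hochberg adjustment over all genes and a threshold of 0.05. A standard error is the size of the log2 fold change over the root of F. Log2 CPM used a prior count of 2, and CPM per kb the exon lengths of GENCODE (GRCm38). The steps were tested on simulated counts in which 200 genes were changed. Alternatives were other scalings, DESeq2 1.42.0, limma 3.58.1 voom, other filters and thresholds, mitochondrial genes left out, fits of only the compared libraries, a replicate block and each library left out. The replicate block with swapped podocyte numbers was added after seeing the data.

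The members and gene lists were chosen with earlier results of these data known. From each list the text names up to 4 genes of highest mean CPM and, in each comparison, up to 2 genes with the highest and 2 with the lowest log2 fold change past the threshold; every tested relative of a member could be named, and the 2 genes nearest to each member in profile. Promoters came from RefSeq (GRCm38.p6). Figures were drawn with matplotlib 3.10.9. Some genes of the lists are not reported here.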

Additional observations from a re-analysis of the deposited data

How the results depend on the processing

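With 2 libraries per group, each fit without 1 library assumed that the lone library varied like the other groups. In wild type 6 to 10 members and in knockout 6 to 9 were called higher in podocytes over all settings, and no member changed direction there. Genes called between cell types ranged over the fits without 1 library from 769 to 1085 in wild type (1481 with all; 769 without wild-type podocyte replicate 2 and 922 without wild-type endothelium replicate 3) and from 960 to 1809 in knockout (1709 with all; 960 and 1115 without knockout endothelium replicate 2 and 3, 1079 without knockout podocyte replicate 2). Scaling by total count split the knockout calls 480 higher and 738 lower, against 1004 and 705, and a filter at a mean of 5 CPM split them 785 and 764. In podocytes 1 gene was called between genotypes, against 0 with total-count scaling, voom, a floor of 5 CPM on the mean or only the libraries compared, 8 with DESeq2 and 0 to 1 without 1 library. In endothelium 1 was called, against 0 with total-count scaling or that floor, 4 with DESeq2 and 0 to 0 without 1 library. The cause of these moves was not tested.

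The labels do not say what a replicate number marks, so the numbers were not taken to pair libraries. Same-numbered libraries' deviations correlated at 0.19 and 0.16 between genotypes within endothelium and podocytes, and at −0.13 and 0.11 between cell types within wild type and knockout. With the replicate block 9 members and 1831 genes were called in wild type and 9 members and 2241 genes in knockout, Actn4 being the member gained; with the podocyte numbers swapped, 1357 genes in wild type. The block called 0 members in the other 3 comparisons.

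Genotype values of members that reversed, none of them called, were in endothelium Actn4 0.084, Myo1e 0.043 and Fat1 0.17 with total-count scaling, Nes −0.029 with DESeq2 size factors and −0.029 with DESeq2, and Fat1 0.026 with the floor of 5 CPM; the interaction of Cd2ap was −0.027 with total-count scaling. Over the fits without 1 library the podocyte values ran from −1.15 to 0.21 for Synpo, −0.29 to 0.013 for Cd2ap, −1.04 to 0.21 for Nes and −0.76 to 0.29 for Vim. The endothelium values ran from −1.05 to 0.24 for Synpo, −0.52 to 0.014 for Myo1e, −0.017 to 0.050 for Nes, −0.17 to 0.37 for Vim, −0.36 to 0.14 for Fat1, −0.47 to 1.30 for Robo2 and −0.68 to 0.17 for Clic5. The interaction ran from −0.87 to 0.73 for Synpo, −1.06 to 0.20 for Nes and −0.89 to 0.16 for Vim.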
